A study of Mus musculus with 8 samples.

Results

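Neutrophil granule genes were followed across bulk RNA-seq libraries of sorted mouse haematopoietic stem cells (HSCs), the cells from which all blood lineages derive. The set holds 10 of the 55487 gene rows in the deposited count files. It comprises 4 genes of primary granules (Elane, Mpo, Prtn3 and Ctsg) and 6 genes of later neutrophil stages (Ngp, Camp, Ltf, Lcn2, S100a8 and S100a9). All 10 were found by symbol and versioned Ensembl identifier. They were chosen by their CPM (counts scaled to library size) in these same libraries, in which NTC replicates 3 and 4 stood out, so the levels below are a description and carry no test.

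A group of 4 libraries is labelled miR652-KD, a knockdown of the microRNA miR-652, and a group of 4 is labelled NTC, a non-target control. The series concerns the pseudouridine synthase Pus10 in ageing HSCs; the sample labels give the cell type and group, and no strain, age, sort gate, knockdown method or number of animals. Libraries were made by Smart-seq2, which amplifies full-length cDNA from small cell inputs. Nothing in the labels says that replicates came from separate animals or cultures, so p-values measure the scatter of these libraries alone, and that scatter could be technical.

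Granule proteins are made in waves as neutrophils mature. The primary (azurophil) granule proteins are made first, in progenitors and promyelocytes. The secondary granule proteins follow in myelocytes and later cells, under the transcription factor C/EBP epsilon. S100a8 and S100a9 encode the subunits of calprotectin, an abundant protein of the neutrophil cytosol, and are transcribed along with the later wave. PU.1 and C/EBP alpha are known regulators of the earlier genes.

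The loci of the set lie on 6 chromosomes (mm10). Prtn3 (ENSMUSG00000057729.12, chromosome 10, 79874476 to 79883174, plus strand) and Elane (ENSMUSG00000020125.7, chromosome 10, 79886247 to 79888215, plus strand) are neighbours, 3073 bases apart. Mpo (ENSMUSG00000009350.13) lies on chromosome 11 from 87793581 to 87804413 and Ctsg (ENSMUSG00000040314.2) on chromosome 14 from 56099881 to 56102574. Ngp (ENSMUSG00000032484.8, 110419747 to 110423012), Camp (ENSMUSG00000038357.10, 109847379 to 109849617) and Ltf (ENSMUSG00000032496.7, 111019271 to 111042767) share chromosome 9. Lcn2 (ENSMUSG00000026822.14) lies on chromosome 2 from 32384633 to 32388252. S100a8 (ENSMUSG00000056054.9, 90668978 to 90670035) and S100a9 (ENSMUSG00000056071.12, 90692632 to 90695721) lie on chromosome 3, on opposite strands and 22597 bases apart.

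Exons of the Prtn3 gene model overlap exons of Plppr3 on the opposite strand, and those of Mpo overlap the antisense gene Gm11505. Smart-seq2 does not mark strand, so reads from the overlapping stretches cannot be assigned to either gene by strand. The effect of this on the Prtn3 and Mpo counts was not tested. Gm11505 had 0 counts in every library, and Plppr3 had 1170 to 2316 counts in miR652-KD and 1098 to 3088 in NTC.

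The 250 bases before the RefSeq transcription start (GRCm38.p6, the same build) were searched on both strands for 3 short words. GAGGAAG, a PU.1-type word, was present in 4 of 4 primary granule genes and 2 of 6 late genes (Lcn2 and S100a8), against 10.6% of 32841 windows of the same length. TTNNGNAA, a C/EBP-type word, was present in 0 of 4 primary granule genes and 5 of 6 late genes (all but Camp), against 36.9% of the windows. TGTGGT, a RUNX-type word, was present in 2 of the 10 (Ctsg and S100a9), against 14.0%. No matches overlapped. A match describes the letters only. For all members but Ctsg and S100a9 the RefSeq start lies inside the GENCODE gene model given above, so the window reaches into that model. For Prtn3 and Lcn2 the whole window lies inside it. The windows of 2 primary granule genes and 2 late genes are shown because the primary genes carry the first word and the late genes carry the second. Capitals mark the matches.
Elane, chr10:79886062-79886311, plus strand: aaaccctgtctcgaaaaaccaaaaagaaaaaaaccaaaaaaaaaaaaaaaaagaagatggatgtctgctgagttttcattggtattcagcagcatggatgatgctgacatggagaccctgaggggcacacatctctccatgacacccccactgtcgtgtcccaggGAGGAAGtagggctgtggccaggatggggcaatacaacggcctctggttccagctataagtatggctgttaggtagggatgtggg
Prtn3, chr10:79879417-79879666, plus strand: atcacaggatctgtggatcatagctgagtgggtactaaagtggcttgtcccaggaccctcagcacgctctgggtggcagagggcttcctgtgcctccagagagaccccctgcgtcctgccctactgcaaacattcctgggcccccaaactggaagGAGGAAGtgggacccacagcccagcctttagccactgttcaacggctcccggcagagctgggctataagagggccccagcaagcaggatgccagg
Ngp, chr9:110419558-110419807, plus strand: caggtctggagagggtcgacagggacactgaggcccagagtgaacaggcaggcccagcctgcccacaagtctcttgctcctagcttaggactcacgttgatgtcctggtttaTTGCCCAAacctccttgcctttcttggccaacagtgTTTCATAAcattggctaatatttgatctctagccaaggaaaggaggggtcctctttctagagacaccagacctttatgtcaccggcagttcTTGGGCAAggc
Ltf, chr9:111019042-111019291, plus strand: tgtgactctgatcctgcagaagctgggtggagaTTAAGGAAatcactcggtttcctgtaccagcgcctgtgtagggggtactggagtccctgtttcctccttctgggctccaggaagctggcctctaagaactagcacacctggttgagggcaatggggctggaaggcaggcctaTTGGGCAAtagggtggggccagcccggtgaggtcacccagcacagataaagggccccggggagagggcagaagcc

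Each library held 14.7 to 19.9 M counts in genes in miR652-KD and 14.0 to 16.8 M in NTC, where M is the SI prefix mega. Levels are given in CPM, counts per M counts in genes. A count of 0 allows a level of up to 0.151 to 0.214 CPM (3 counts), for counting error only, since amplified copies carry no molecular identifiers. All 20 HSC marker genes had at least 10 counts in every library, among them Kit, Ly6a, Slamf1, Procr and Mecom. Their summed level was 4295 to 4583 CPM in miR652-KD and 4320 to 5125 CPM in NTC. Of the 20 markers, 0 were called by edgeR and 7 had an unadjusted p below 0.05, against 5.99% of all genes tested. DESeq2 called 3 (Cd34, Vldlr and Ly6a), against 0.425% of all genes, and limma-voom called 1, against 0.0487%. NTC replicate 1 stood apart in the share of reads outside annotated genes, at 16.9%, against 9.69% to 11.3% in the other 7 libraries.

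Among the primary granule genes, Elane, Mpo and Ctsg differed widely between libraries of one group, whereas Prtn3 was abundant in every library and varied less. Elane, which encodes neutrophil elastase, had 1919.9, 4.32, 0.101 and 9.87 CPM in miR652-KD replicates 1 to 4, against 0.471, 983, 1311 and 2535 CPM in NTC replicates 1 to 4. It was thus high in miR652-KD replicate 1 and in NTC replicates 2 to 4, low in the other 4 libraries, and the groups overlapped. Mpo, which encodes myeloperoxidase, had 1979, 182, 0.251 and 235 CPM in miR652-KD replicates 1 to 4, against 3.36, 1095, 1005 and 1718 CPM in NTC replicates 1 to 4. The same 4 libraries were high, but miR652-KD replicates 2 and 4 held an intermediate level of Mpo that they did not hold for Elane. Ctsg, which encodes cathepsin G, had 583, 143, 0 and 86.0 CPM in miR652-KD replicates 1 to 4, against 0.404, 569, 338 and 803 CPM in NTC replicates 1 to 4. Its order resembled that of Mpo, and again the groups overlapped.

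Prtn3, which encodes proteinase 3, had 957, 651, 585 and 573 CPM in miR652-KD replicates 1 to 4, against 559, 839.9, 795 and 1270.2 CPM in NTC replicates 1 to 4. The highest library was 2.27 times the lowest. Within this narrower range, the 4 libraries highest in Prtn3 were those in which Elane was high. Its mean was 691 ± 181 CPM in miR652-KD and 866 ± 296 CPM in NTC (SD, n = 4 each), and the groups overlapped. The ratio of Elane to Prtn3, each per kb of exon, was 3.53, 0.0117, 0.000303 and 0.0303 in miR652-KD replicates 1 to 4, against 0.00148, 2.06, 2.90 and 3.51 in NTC replicates 1 to 4. Elane therefore exceeded its neighbour Prtn3 in 4 libraries and was far below it in the other 4.

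**Figure D1:**
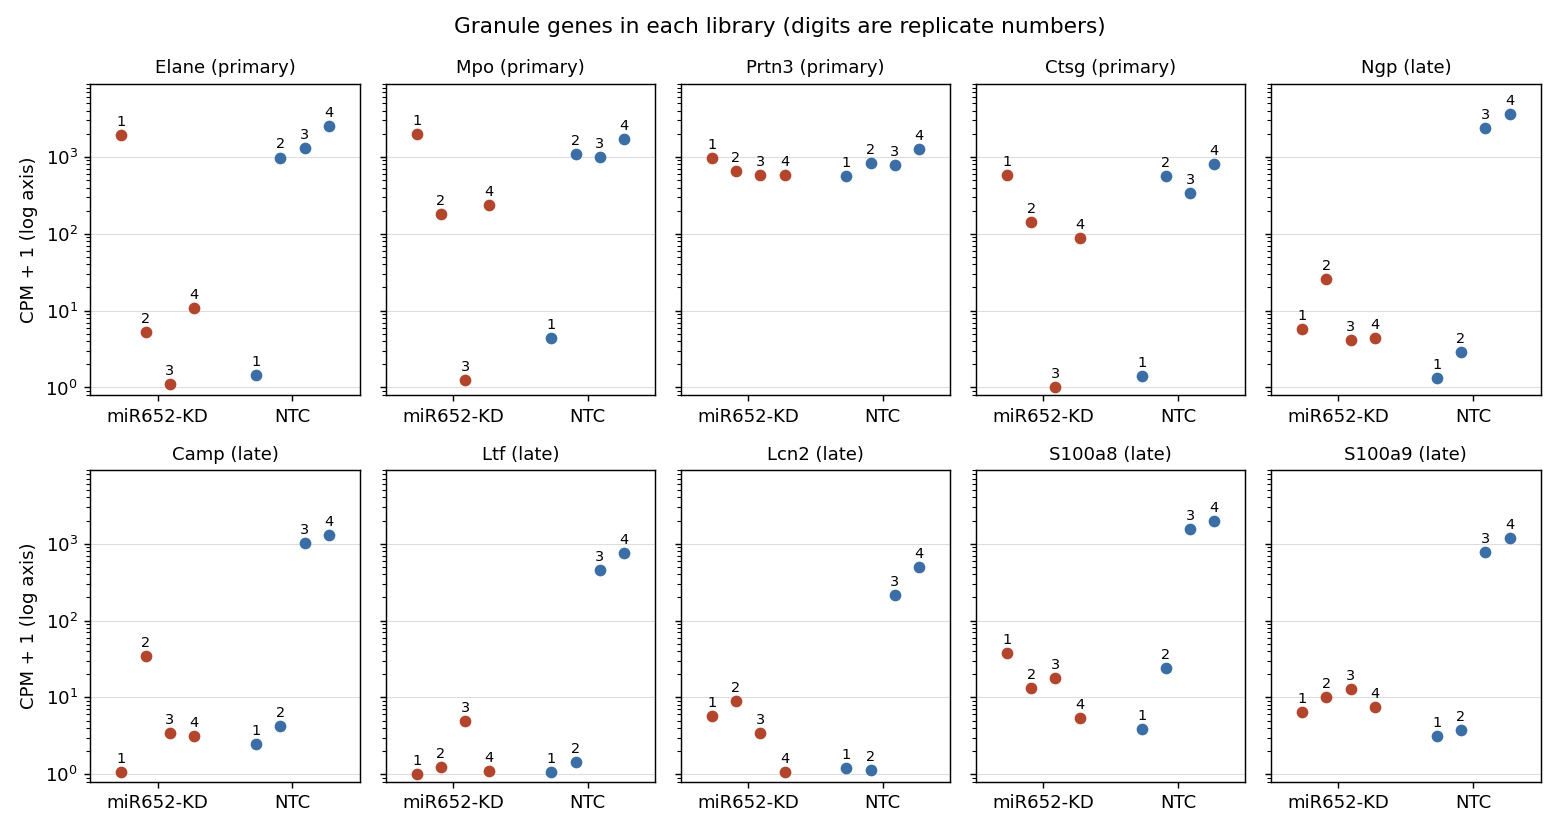
CPM + 1 (vertical log axis) of each of the 10 genes in the 4 miR652-KD and the 4 NTC libraries; each point is 1 library and its digit the replicate number. Prtn3 lies between 559 and 1270.2 CPM in all 8, while the late genes are high in NTC replicates 3 and 4.

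The late genes were abundant in NTC replicates 3 and 4 and low in the other 6 libraries. Ngp, which encodes neutrophilic granule protein, had 4.77, 24.7, 3.12 and 3.46 CPM in miR652-KD replicates 1 to 4, against 0.336, 1.93, 2413 and 3623 CPM in NTC replicates 1 to 4. Camp, which encodes the antimicrobial peptide precursor cathelicidin, had 0.0681, 33.7, 2.46 and 2.14 CPM in miR652-KD replicates 1 to 4, against 1.48, 3.28, 1022 and 1282 CPM in NTC replicates 1 to 4. In both genes miR652-KD replicate 2 was the highest of the 6 libraries with low levels. Ltf, which encodes the iron-binding protein lactoferrin, had 0, 0.243, 3.97 and 0.115 CPM in miR652-KD replicates 1 to 4, against 0.0673, 0.428, 454 and 751 CPM in NTC replicates 1 to 4. Lcn2, which encodes the siderophore-binding lipocalin 2, had 4.77, 7.90, 2.46 and 0.0577 CPM in miR652-KD replicates 1 to 4, against 0.202, 0.143, 212 and 489 CPM in NTC replicates 1 to 4. In each of these 4 genes all miR652-KD values, like those of NTC replicates 1 and 2, lay below those of NTC replicates 3 and 4.

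S100a8 had 36.4, 12.3, 17.0 and 4.33 CPM in miR652-KD replicates 1 to 4, against 2.89, 23.3, 1547 and 1968.5 CPM in NTC replicates 1 to 4. S100a9 had 5.52, 9.06, 11.7 and 6.41 CPM in miR652-KD replicates 1 to 4, against 2.15, 2.71, 775 and 1186 CPM in NTC replicates 1 to 4. The ratio of S100a8 to S100a9 counts was 6.59, 1.36, 1.45 and 0.676 in miR652-KD replicates 1 to 4, against 1.34, 8.61, 2.00 and 1.66 in NTC replicates 1 to 4. The ratio was highest in miR652-KD replicate 1 and NTC replicate 2, where S100a9 had 81 and 38 counts.

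Per kb of exon, which allows genes to be compared, S100a8 and Ngp were the most abundant of the 10 in both NTC libraries with high late genes. In NTC replicate 4 Ngp stood at 2965 CPM per kb, S100a8 at 2836 and Elane at 2576, and Lcn2 was lowest at 187. In NTC replicate 3 S100a8 stood at 2229 CPM per kb, Ngp at 1975 and S100a9 at 1484, and Lcn2 was again lowest at 80.8. Among all annotated genes of a library, Ngp ranked 3052 to 10243 in miR652-KD, against 15558, 11625, 15 and 7 in NTC replicates 1 to 4. Prtn3 ranked 85 to 141 in miR652-KD and 58 to 126 in NTC.

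The late genes together made up 0.642% of the counts of NTC replicate 3 and 0.930% of those of NTC replicate 4. Their summed level was 51.5, 88.0, 40.7 and 16.5 CPM in miR652-KD replicates 1 to 4, against 7.13, 31.8, 6423 and 9299 CPM in NTC replicates 1 to 4. The primary genes summed to 5439, 980.4, 585 and 903 CPM in miR652-KD replicates 1 to 4, against 563, 3487, 3449 and 6327 CPM in NTC replicates 1 to 4. The libraries thus took 4 forms: primary and late genes high (NTC replicates 3 and 4), primary genes high with late genes low (miR652-KD replicate 1 and NTC replicate 2), Mpo and Ctsg intermediate (miR652-KD replicates 2 and 4), and Prtn3 nearly alone (miR652-KD replicate 3 and NTC replicate 1). In bulk RNA, fewer cells of a type and less RNA per cell cannot be told apart.

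The late share of all reads of the 10 genes was 0.938% (95% exact Clopper-Pearson interval 0.873% to 1.01%) in miR652-KD replicate 1. It was 8.23% (7.83% to 8.65%), 6.51% (6.08% to 6.95%) and 1.79% (1.59% to 2.01%) in miR652-KD replicates 2 to 4. In NTC replicates 1 and 2 it was 1.25% (1.02% to 1.51%) and 0.904% (0.823% to 0.992%). In NTC replicates 3 and 4 it was 65.1% (64.8% to 65.3%) and 59.5% (59.3% to 59.7%). These intervals cover counting error only and are narrower than the spread between libraries. Late transcripts were thus most of the reads of the 10 genes in 2 libraries and a small part in the other 6. In NTC replicate 1 and miR652-KD replicate 3 that small part rests on Prtn3, which made up nearly all the other reads. Elane, Mpo and Ctsg together had 63 and 7 counts there, against 106 and 810 late counts. NTC replicate 4 had more of every gene of the set than NTC replicate 3, with a CPM ratio of 1.25 for Camp, 1.27 for S100a8, 1.60 for Prtn3, 2.31 for Lcn2 and 2.38 for Ctsg.

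**Figure D2:**
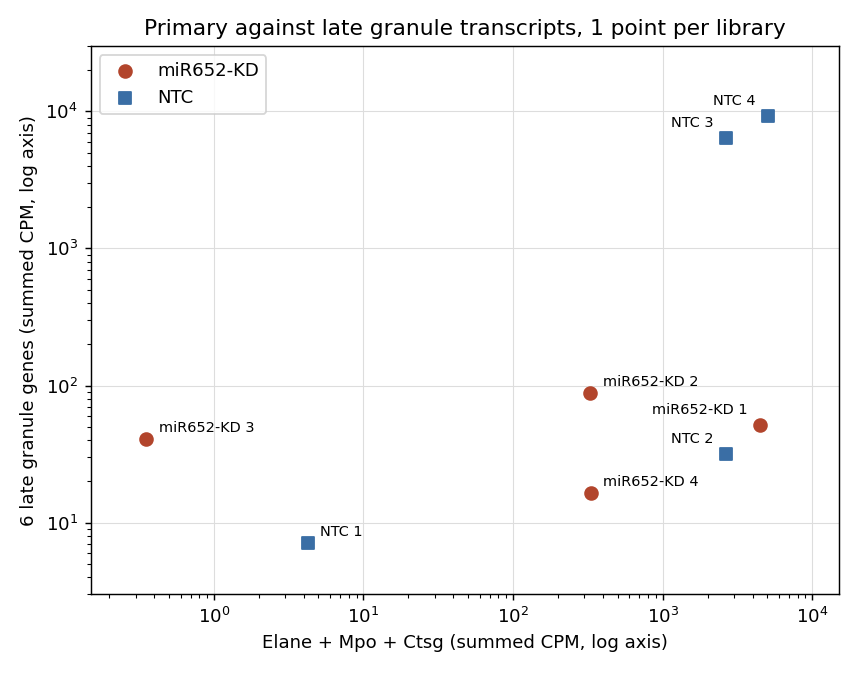
Summed CPM of Elane, Mpo and Ctsg (horizontal log axis) against summed CPM of the 6 late genes (vertical log axis), 1 point per library, circles for miR652-KD and squares for NTC. NTC replicates 3 and 4 lie at 6423 and 9299 CPM of late transcripts, and the other 6 libraries at 7.13 to 88.0 CPM. On the horizontal axis the other 6 span 0.352 to 4482 CPM, and NTC replicates 3 and 4 lie at 2654 and 5056 CPM.

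The study's contrast, miR652-KD over NTC, was fitted across all genes. A total of 9 of the 10 genes passed the filter on low counts; Ltf did not. None of the 9 was called by edgeR's quasi-likelihood test at an adjusted p below 0.05, where 6 of 14360 genes were called (0.0418% of genes tested). At an unadjusted p below 0.05 there were 4 (Ngp, Lcn2, S100a8 and S100a9), against 5.99% of all genes. DESeq2 called 3 (Ngp, S100a8 and S100a9), against 0.425% of all genes, and limma-voom called 0, against 0.0487%. Since the genes were chosen for their levels in these libraries, nothing is read from these counts. The groups overlapped in all 10 genes, whereas they did not overlap in 4.5% of genes tested.

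The fitted log2 differences of the primary genes were -1.31 (SE 2.59) for Elane, -0.67 (SE 2.00) for Mpo, -1.08 (SE 1.96) for Ctsg and -0.32 (SE 0.25) for Prtn3. The small SE of Prtn3 goes with its narrower range between libraries. Those of the late genes were -7.39 (SE 2.80) for Ngp, -5.92 (SE 2.57) for Camp, -5.91 (SE 2.1) for S100a9, -5.66 (SE 2.05) for S100a8 and -5.54 (SE 2.31) for Lcn2. With NTC replicates 3 and 4 left out, all 5 late values changed sign, to 2.97 for Ngp, 2.00 for Camp, 1.75 for S100a9, 0.40 for S100a8 and 4.41 for Lcn2, and edgeR called 0 of the 9 genes of the set (0% of 15972 genes tested). At an unadjusted p below 0.05 there was then 1 gene of the set, against 5.53% of all genes. NTC replicates 3 and 4 were known to stand out for the late genes, so the change of sign is a description and no test. Lcn2 then rests on 3 and 2 counts in NTC replicates 1 and 2, and Ngp on 5 and 27. Camp then rests largely on miR652-KD replicate 2, at 555 counts, against 1, 49 and 37 in miR652-KD replicates 1, 3 and 4. Leaving out single libraries, Elane ran from -7.99 without miR652-KD replicate 1 to -0.65 without NTC replicate 4. Over the same pair of libraries Mpo ran from -2.78 to -0.22, Ctsg from -2.49 to -0.58 and Prtn3 from -0.52 to -0.0728.

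**Figure D3:**
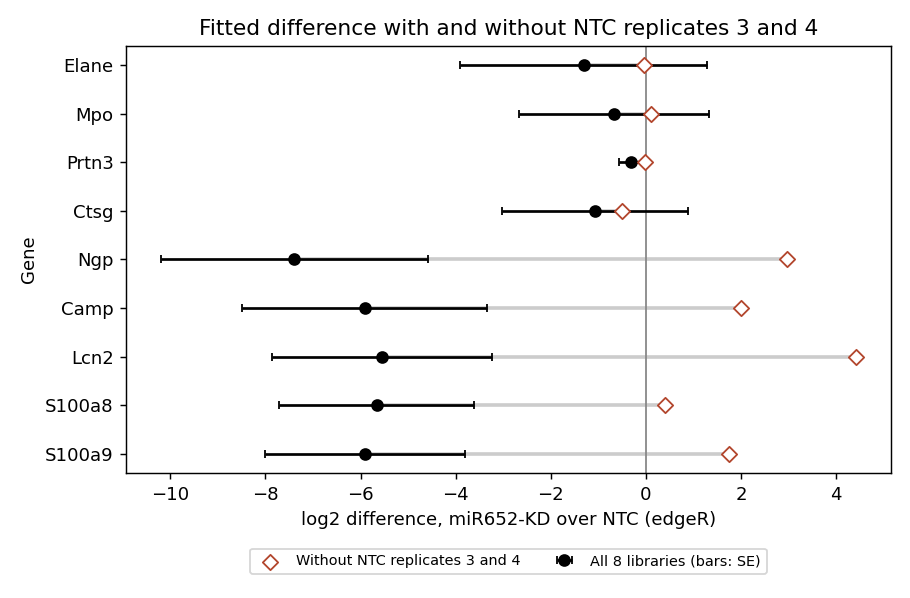
Log2 difference of miR652-KD over NTC (horizontal axis) for the 9 genes that passed the filter, with all 8 libraries (black, bars are SE) and without NTC replicates 3 and 4 (open diamonds). The late genes move from -7.39 to -5.54 on the left to 0.40 to 4.41 on the right of 0, and Prtn3 stays at -0.32 and -0.01.

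Other genes of the granule pathway were listed by their known roles. Of 12 further genes for primary granule content, processing and packaging, 11 were tested and 0 were called, with 2 above 0, 9 below 0 and a median log2 difference of -0.15, against -0.00434 over all genes tested. At an unadjusted p below 0.05 there were 2, against 5.99% of all genes. DESeq2 called 1 (Serpinb1a), against 0.425% of all genes, and limma-voom 0, against 0.0487%. The 12 genes summed to 2620 to 2791 CPM in miR652-KD and 2701 to 3251 CPM in NTC, so the sum lacked the wide range of Elane, Mpo and Ctsg. Most of each sum came from Srgn and Cd63, so it says little of the other genes of the list. Srgn, the proteoglycan core on which granule proteases are packed, averaged 1236 ± 116 CPM in miR652-KD and 1333 ± 104 CPM in NTC (SD, n = 4 each; log2 difference -0.11, edgeR adjusted p = 0.989). Cd63, a granule membrane tetraspanin, averaged 654 ± 38.2 CPM in miR652-KD and 704 ± 78.2 CPM in NTC (SD, n = 4 each; log2 difference -0.11, edgeR adjusted p = 0.995). Gusb, the lysosomal enzyme beta-glucuronidase, averaged 144 ± 23.4 CPM in miR652-KD and 159.8 ± 19.8 CPM in NTC (SD, n = 4 each; log2 difference -0.15, edgeR adjusted p = 0.995). None of these 3 genes passed. Serpinb1a, an inhibitor of elastase-type proteases, averaged 159.6 ± 28.1 CPM in miR652-KD and 270.5 ± 69.6 CPM in NTC (SD, n = 4 each). Its groups did not overlap, like those of 4.5% of genes tested, and its log2 difference of -0.76 did not pass (edgeR adjusted p = 0.611). Prss57, a further granule serine protease singled out after its values were seen, had 46.2, 22.3, 9.65 and 19.4 CPM in miR652-KD replicates 1 to 4, against 24.0, 35.8, 39.7 and 89.9 CPM in NTC replicates 1 to 4. Bpi, a bactericidal granule protein and the untested gene of the list, had 0 counts in every library.

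Of 20 further late granule genes, 11 were tested and 0 were called, with 0 above 0, 11 below 0 and a median log2 difference of -1.58. At an unadjusted p below 0.05 there were 2, against 5.99% of all genes. DESeq2 called 0, against 0.425% of all genes, and limma-voom 0, against 0.0487%. Without NTC replicates 3 and 4 the median was 0.31, with 8 above 0 and 3 below 0, and leaving out single libraries it ran from -3.14 without miR652-KD replicate 1 to -0.49 without NTC replicate 4. Their summed level was 1695, 1526, 1431 and 1361 CPM in miR652-KD replicates 1 to 4, against 1378, 1409, 3102 and 5148 CPM in NTC replicates 1 to 4. Chil3, a chitinase-like protein of neutrophils and macrophages, had 102, 11.1, 6.33 and 0.115 CPM in miR652-KD replicates 1 to 4, against 0.269, 0.428, 464 and 994 CPM in NTC replicates 1 to 4. Lyz2, which encodes lysozyme, had 762, 944, 748 and 823 CPM in miR652-KD replicates 1 to 4, against 681, 811, 1511 and 2184 CPM in NTC replicates 1 to 4. It was present in every library, with NTC replicates 3 and 4 on top. Anxa1 averaged 211 ± 31.1 CPM in miR652-KD and 338 ± 206 CPM in NTC, and Cyba, a subunit of the phagocyte oxidase, 270.0 ± 37.0 CPM in miR652-KD and 280.3 ± 75.0 CPM in NTC (SD, n = 4 each).

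The other late granule genes showed no single pattern, and those in this paragraph are named after their values were seen. Several were highest in NTC replicates 3 and 4. Ifitm6, an interferon-induced transmembrane family gene, had 3.75, 0.122, 0.0503 and 0.0577 CPM in miR652-KD replicates 1 to 4, against 0, 0, 39.8 and 60.3 CPM in NTC replicates 1 to 4. Fcnb, which encodes the lectin ficolin B, had 7.84, 5.78, 0 and 0 CPM in miR652-KD replicates 1 to 4, against 0, 5.42, 30.8 and 60.0 CPM in NTC replicates 1 to 4. Lrg1, which encodes a leucine-rich glycoprotein, had 0, 2.92, 0 and 0 CPM in miR652-KD replicates 1 to 4, against 2.62, 0, 26.0 and 50.4 CPM in NTC replicates 1 to 4. In all 3 every miR652-KD value, like those of NTC replicates 1 and 2, lay below those of NTC replicates 3 and 4. Hp, which encodes haptoglobin, had 83.5, 4.99, 0 and 6.0 CPM in miR652-KD replicates 1 to 4, against 0, 36.4, 52.3 and 195 CPM in NTC replicates 1 to 4, so miR652-KD replicate 1 exceeded NTC replicate 3. Mmp8 and Mmp9, which encode matrix proteases of secondary and tertiary granules, were low in all 8 libraries. Mmp8 had at most 2.86 CPM in miR652-KD (replicate 1) and at most 0.0597 CPM in NTC. Mmp9 had at most 0.101 CPM in miR652-KD, and in NTC it had 7.11 CPM in replicate 4 and 0 counts in the other 3. Cd177, a surface protein stored in secondary granules, had at most 0.122 CPM in miR652-KD, against 0.135, 0, 20.5 and 159.9 CPM in NTC replicates 1 to 4. Cybb, the other subunit of the phagocyte oxidase, had 9.06, 0, 0 and 0 CPM in miR652-KD replicates 1 to 4, against 0, 2.43, 54.5 and 135.2 CPM in NTC replicates 1 to 4.

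Of 20 mature neutrophil markers, 8 were tested and 0 were called, with 2 above 0, 6 below 0 and a median log2 difference of -0.64. Without NTC replicates 3 and 4 the median was 0.07, with 5 above 0 and 4 below 0; without miR652-KD replicate 1 it was -1.18, and with no filter -1.79. At an unadjusted p below 0.05 there were 3, against 5.99% of all genes. DESeq2 called 1 (Wfdc21), against 0.425% of all genes, and limma-voom 0, against 0.0487%. Their summed level was 48.2 to 92.8 CPM in miR652-KD, against 61.5, 104.4, 139 and 286 CPM in NTC replicates 1 to 4. In NTC replicate 3 a total of 10 of the 20 were at 0 counts and in NTC replicate 4 a total of 8; in the other 6 libraries 11 to 14 were. Part of the list was highest in NTC replicates 3 and 4, and part was near 0 throughout; the markers described here were picked after their values were seen. Trem3, a triggering receptor of myeloid cells, had 8.86, 0.0608, 0 and 0 CPM in miR652-KD replicates 1 to 4, against 0.0673, 14.9, 33.8 and 58.6 CPM in NTC replicates 1 to 4. Wfdc17 had 9.81, 6.26, 3.27 and 10.2 CPM in miR652-KD replicates 1 to 4, against 6.93, 16.8, 34.4 and 44.6 CPM in NTC replicates 1 to 4. Wfdc21 had at most 0.402 CPM in miR652-KD, against 0.807, 1.43, 11.5 and 24.5 CPM in NTC replicates 1 to 4. All 3 were thus highest in the libraries with high late genes, as was Fpr2, a formyl peptide receptor, at 0 counts in miR652-KD and 0, 0, 5.31 and 8.95 CPM in NTC replicates 1 to 4. Ly6g, the antigen of the granulocyte antibody Ly-6G, had 0 counts in the miR652-KD libraries and 0, 0.571, 0 and 15.2 CPM in NTC replicates 1 to 4. Retnlg had 0 counts in the miR652-KD libraries and 0.0673, 0, 0 and 11.96 CPM in NTC replicates 1 to 4. The chemokine receptor gene Cxcr2 had 5.72, 2.07, 0.201 and 0 CPM in miR652-KD replicates 1 to 4, against 0.269, 0, 0.0597 and 0 CPM in NTC replicates 1 to 4. The genes Fpr1, Il1b, Stfa1, Stfa2, Stfa2l1, Stfa3 and Acod1 had 0 counts in all 8 libraries. The part of mature neutrophils in the late transcripts was not tested.

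Of 14 transcription factors of granulopoiesis all were tested and 0 were called, with 6 above 0, 8 below 0 and a median log2 difference of -0.08. At an unadjusted p below 0.05 there was 1, against 5.99% of all genes. DESeq2 called 0, against 0.425% of all genes, and limma-voom 0, against 0.0487%. Together the 14 factors summed to 1157 to 1266 CPM in miR652-KD and 1289 to 1454 CPM in NTC, without overlap. Most of each sum came from Stat3, Myb, Etv6 and Spi1. How often sums of gene lists fail to overlap was not computed, so nothing is read from this. Spi1, which encodes PU.1, averaged 201 ± 41.4 CPM in miR652-KD and 204 ± 29.7 CPM in NTC, and Myb 230.0 ± 19.2 CPM in miR652-KD and 269.5 ± 25.4 CPM in NTC (SD, n = 4 each). Myb did not overlap between groups, like 4.5% of genes tested, and did not pass (log2 difference -0.23, edgeR adjusted p = 0.86). Stat3 averaged 266 ± 28.4 CPM in miR652-KD and 323 ± 60.7 CPM in NTC, and Etv6 210.3 ± 23.4 CPM in miR652-KD and 235 ± 5.98 CPM in NTC (SD, n = 4 each). A further 3 factors were singled out after their values were seen. Cebpa, which encodes C/EBP alpha, had 10.8, 7.30, 5.93 and 1.33 CPM in miR652-KD replicates 1 to 4, against 0.269, 0, 0.0597 and 10.6 CPM in NTC replicates 1 to 4. It was highest in miR652-KD replicate 1 and NTC replicate 4, also the highest in Elane and Mpo, and low with them in NTC replicate 1. In contrast, Cebpa was near 0 in NTC replicates 2 and 3, where Elane and Mpo were high. It was present in miR652-KD replicate 3, where both were low. A relation of Cebpa to these genes was not tested. Irf8, a factor of monocyte and dendritic cell development, had 55.5, 29.3, 7.64 and 64.0 CPM in miR652-KD replicates 1 to 4, against 8.47, 10.6, 12.9 and 1.71 CPM in NTC replicates 1 to 4. Its log2 difference was 2.22 (edgeR adjusted p = 0.779), with the groups overlapping. Cebpe, which encodes C/EBP epsilon, had 7.84, 0.0608, 9.15 and 1.96 CPM in miR652-KD replicates 1 to 4, against 0.0673, 3.21, 64.4 and 31.0 CPM in NTC replicates 1 to 4. The highest levels of Cebpe were thus in the libraries with high late genes, with NTC replicate 3 above NTC replicate 4.

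**Figure D4:**
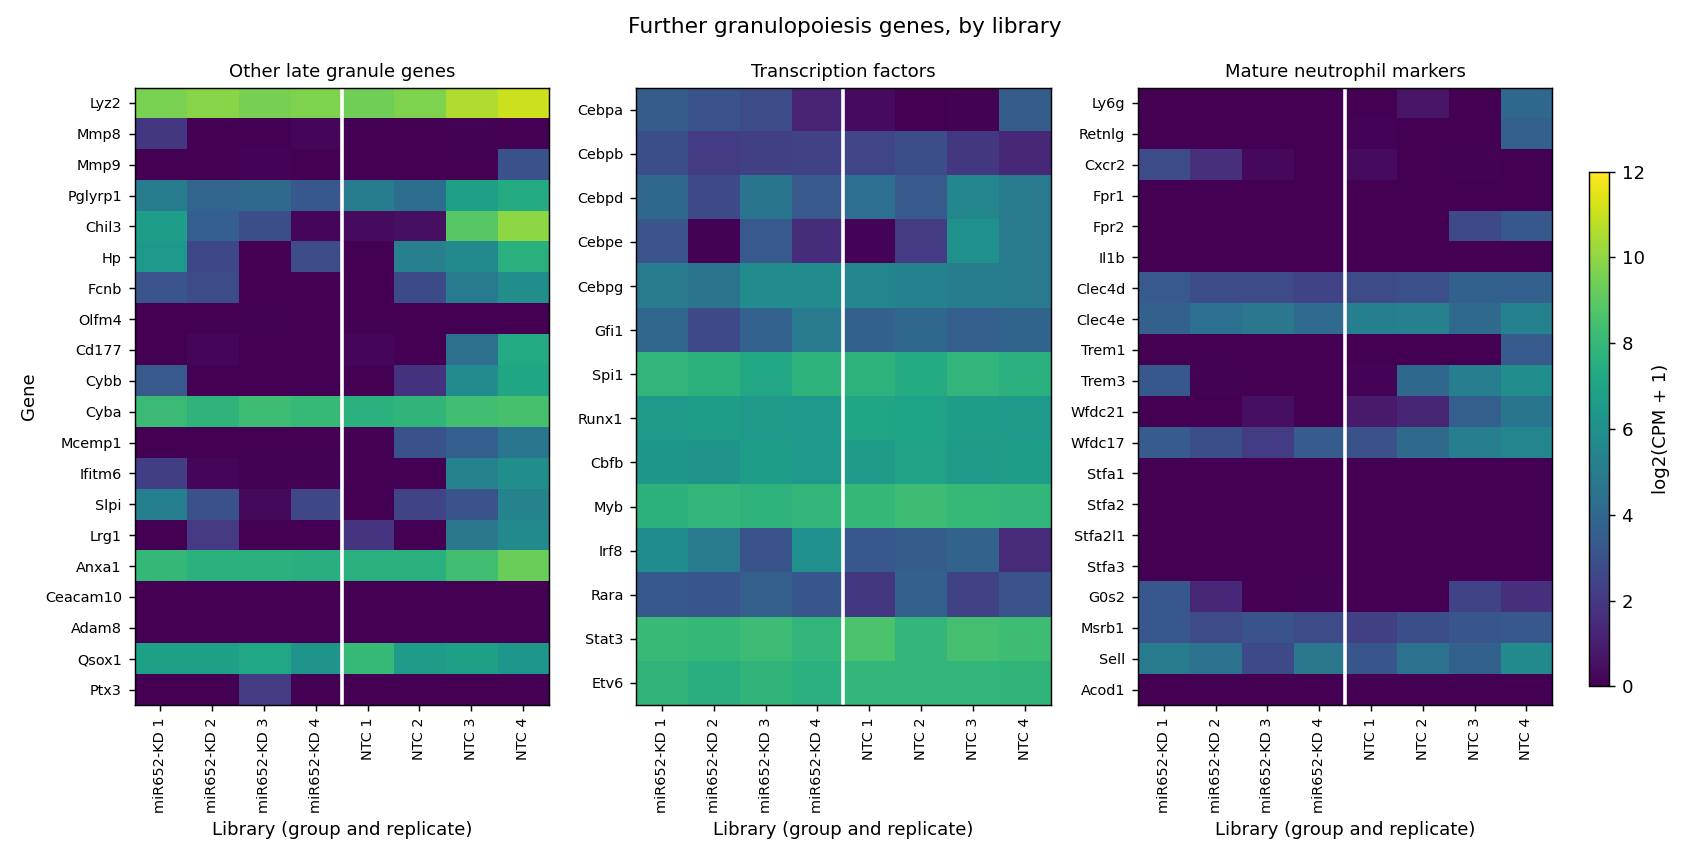
Heat maps of log2(CPM + 1) for 20 further late granule genes, 14 transcription factors and 20 mature neutrophil markers, with 1 column per library (miR652-KD left, NTC right of the white line). Chil3, Cd177, Cybb and Cebpe are brightest in NTC replicates 3 and 4, and 7 of the neutrophil markers are at 0 throughout.

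Of 7 receptor genes for myeloid growth factors, 6 were tested and 0 were called, with 1 above 0, 5 below 0 and a median log2 difference of -0.39. At an unadjusted p below 0.05 there were 2, against 5.99% of all genes. DESeq2 called 1 (Csf3r), against 0.425% of all genes, and limma-voom 0, against 0.0487%. Summed, the 7 genes stood at 593 to 699.8 CPM in miR652-KD and 741 to 961 CPM in NTC, without overlap. Kit made up most of each sum, and how often sums of gene lists fail to overlap was not computed. The untested gene, Csf1r, the receptor of the macrophage growth factor, had 8.18, 3.16, 0.352 and 1.15 CPM in miR652-KD replicates 1 to 4 and 0 counts in the 4 NTC libraries. Csf3r, the receptor of the granulocyte growth factor G-CSF, had 81.3, 125.5, 76.6 and 86.0 CPM in miR652-KD replicates 1 to 4, against 159, 218, 125.1 and 158 CPM in NTC replicates 1 to 4. Its log2 difference was -0.84 (SE 0.21, edgeR adjusted p = 0.598), and the groups overlapped at miR652-KD replicate 2 and NTC replicate 3. Kit, the receptor of stem cell factor, averaged 408 ± 23.3 CPM in miR652-KD and 518 ± 99.6 CPM in NTC (SD, n = 4 each). Its groups did not overlap, like those of 4.5% of genes tested, and it did not pass (log2 difference -0.34, edgeR adjusted p = 0.782). Csf2ra, a chain of the GM-CSF receptor, averaged 60.8 ± 15.6 CPM in miR652-KD and 59.7 ± 9.27 CPM in NTC, and Flt3 32.0 ± 13.9 CPM in miR652-KD and 46.1 ± 8.10 CPM in NTC (SD, n = 4 each). Kit and Csf3r were each highest in NTC replicate 1 or 2, where the late genes were low.

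Markers of early myeloid progenitors, summed, were highest in the 4 libraries in which Elane was high, though not every marker was. Of 12 such markers all were tested and 0 were called, with 3 above 0, 9 below 0 and a median log2 difference of -0.49. Without NTC replicates 3 and 4 the median was 0.72, with 9 above 0 and 3 below 0; leaving out single libraries it ran from -1.23 without miR652-KD replicate 1 to -0.0256 without NTC replicate 4. At an unadjusted p below 0.05 there were 2, against 5.99% of all genes. DESeq2 called 0, against 0.425% of all genes, and limma-voom 0, against 0.0487%. The summed level of the markers was 2091, 1155, 1072 and 1189 CPM in miR652-KD replicates 1 to 4, against 772, 1386, 1513 and 2260.1 CPM in NTC replicates 1 to 4. Ms4a3, a gene of granulocyte and monocyte progenitors singled out after its values were seen, had 142, 2.37, 4.67 and 0.0577 CPM in miR652-KD replicates 1 to 4, against 1.55, 76.9, 68.6 and 233 CPM in NTC replicates 1 to 4. The 4 libraries highest in Ms4a3 were again those in which Elane was high. Gstm1, the most abundant marker of the list and named for contrast, had 885, 645, 768 and 758 CPM in miR652-KD replicates 1 to 4, against 434, 616, 666 and 794 CPM in NTC replicates 1 to 4, an order that differs from that of Elane. The part of such progenitors in the level of the primary genes was not tested.

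Markers of other cell types had 0 calls by edgeR in every list, against 0.0418% of all genes. At an unadjusted p below 0.05 there were 2 of 18 erythroid genes tested, against 5.99% of all genes. There was 1 of 4 among eosinophil, basophil and mast cell genes, 1 of 5 among B cell genes and 1 of 10 among megakaryocyte genes. Monocyte and macrophage genes had 0 of 7, and T and NK genes 0 of 2. DESeq2 called 1 gene of these lists (Alas2), against 0.425% of all genes. Monocyte and macrophage markers summed to 328, 55.8, 42.9 and 90.1 CPM in miR652-KD replicates 1 to 4. In NTC replicates 1 to 4 the sum was 38.3, 167, 171 and 317 CPM, so the sum too was highest where Elane was high. Much of it was Ly6c2, at 193 CPM in miR652-KD replicate 1 and 109, 62.2 and 219 CPM in NTC replicates 2 to 4. Not every marker followed Elane. C1qb and Lgals3 had 15.99 and 15.18 CPM in miR652-KD replicate 4, against 12.48 and 6.71 CPM in NTC replicate 2. Ms4a6c had 19.04 CPM in miR652-KD replicate 4, against 12.16 CPM in NTC replicate 4. Erythroid markers ranged from 1840.5 to 4716 CPM in miR652-KD and from 4239 to 8224 CPM in NTC, with 3 genes above 0, 15 below 0 and a median log2 difference of -2.41. Most of the sum in miR652-KD replicates 1 to 3 was Car2, singled out after its values were seen. Car2 averaged 2003 CPM in miR652-KD and 1806 CPM in NTC (log2 difference 0.15, edgeR adjusted p = 0.995). Without NTC replicates 3 and 4 the erythroid median was -2.20, with 1 above 0 and 18 below 0; with miR652-KD replicate 4 left out it was -3.76, and with NTC replicate 2 left out -1.24. Eosinophil, basophil and mast cell markers ranged from 2.46 to 26.6 CPM in miR652-KD and from 12.2 to 38.0 CPM in NTC. B cell markers ranged from 69.5 to 215 CPM in miR652-KD and from 57.8 to 177 CPM in NTC. T and NK cell markers ranged from 7.36 to 20.7 CPM in miR652-KD and from 4.35 to 15.8 CPM in NTC, and megakaryocyte and platelet markers from 402 to 599.8 CPM in miR652-KD and from 403 to 581 CPM in NTC.

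Outside the set, 11324 protein-coding genes were ranked by how closely log2(CPM + 1) followed the summed late or primary genes over the 8 libraries, as a description. Only genes that passed the filter on low counts, with symbols other than Gm numbers or Rik names, were ranked. A gene high in NTC replicates 3 and 4 alone could fail that filter, as Ltf did, and was then left out of the ranking. Among the genes ranked, the late sum was followed most closely by N4bp2l1 (Pearson r = 0.97), Zfp959 (0.97), Lyz2 (0.96), Fnta, a farnesyltransferase subunit (0.94), and Rit1, a Ras-like GTPase (0.93). These values rest in part on NTC replicates 3 and 4: over the other 6 libraries r was 0.88, 0.73, 0.71, 0.90 and 0.32 in the same order. The primary sum was followed most closely by the complement gene C3 (Pearson r = 0.99), the monocyte antigen gene Ly6c2 (0.98), the haptoglobin gene Hp (0.98), Serpina3f (0.97) and the GTPase gene Rab44 (0.96). Over the other 6 libraries r was 0.99, 0.97, 0.97, 0.96 and 0.96. Ly6c2 had 193, 5.65, 0.151 and 0.115 CPM in miR652-KD replicates 1 to 4, against 0.0673, 109, 62.2 and 219 CPM in NTC replicates 1 to 4. The same libraries were high in Ly6c2 as in Elane, though their order within the high and the low libraries differed.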

How the data were processed

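The authors deposited whole-number read counts per gene, 1 file per library, not normalized. The submitters' processing notes name HISAT2 2.1.0, HTSeq 0.11.2, DESeq2 and the build mm10; for the gene annotation release and the strand option, nothing is stated. Each file has 55487 genes and 5 HTSeq summary lines, which were left out; reads outside genes made up 9.69% to 16.9% and ambiguous reads 8.94% to 12.3%. Identifiers were matched to GENCODE M21 (55394 found), which also gave exon lengths, the merged exons of each gene.

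The contrast was fitted with edgeR 4.0.16 (R 4.3.3): TMM scaling, filterByExpr (minimum count 10, total 15), robust quasi-likelihood F test, Benjamini-Hochberg adjustment over 14360 genes, called below 0.05. SE is the log2 difference divided by the square root of F. Levels are CPM over all gene rows. The alternatives tried were DESeq2 1.42.0, limma-voom with quality weights (limma 3.58.1), scaling by RLE or upper quartile, other filters, a replicate block and leaving out libraries.

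The genes and lists were chosen with earlier results of these data known. Named genes were the 10 members, genes called in each list, the 4 list genes of highest mean CPM in pathway lists and the 5 genes closest to each sum; for cell type lists summed levels are given instead, and exceptions are named as chosen afterwards. Of 203 list entries 202 were found by symbol.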

Additional observations from a re-analysis of the deposited data

Results flagged for a closer look

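Within groups of 4 libraries, 14 of 88 sets of values had 1 library set apart, the gap to its neighbour divided by the whole range (in brackets) exceeding Dixon's 95% critical value; chance gives about 1 in 20 independent sets. That rate cannot be read against these counts, since the 10 genes were chosen on these levels and many sets share genes, so the values are a description. In miR652-KD, replicate 1 was set apart for Elane (0.995), Mpo (0.881), the summed primary granule genes (0.919), the ratio of Elane to Prtn3 (0.991), the ratio of S100a8 to S100a9 (0.869), the late granule gene Chil3 (0.892), the early myeloid progenitor markers (0.886) and the monocyte and macrophage markers (0.834). Replicate 2 of miR652-KD was set apart for Ngp (0.924), Camp (0.929) and the summed receptor genes (0.879). Replicate 3 was set apart for Ltf (0.939), at 79 counts, and replicate 4 for the erythroid markers (0.832). In NTC, replicate 2 was set apart for the ratio of S100a8 to S100a9 (0.91), which rests on 38 counts of S100a9. A pair of high libraries, such as NTC replicates 3 and 4 for the late genes, cannot be picked out in this way.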

How the results depend on the processing

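The number of genes called, 6 with all libraries, was 5 to 7 under RLE and upper-quartile scaling, limma-voom, no filter and a filter of 5 CPM in 4 libraries. It was 61 with DESeq2, 0 with the replicate block, 0 without NTC replicates 3 and 4 and 0 to 0 when single libraries were left out; the cause was not tested. Same-numbered libraries did not deviate together (correlations -0.03 to -0.01), so the block pairs nothing. DESeq2 called 3 genes of the set, 3 HSC markers and 1 gene each of the further primary granule, receptor, mature neutrophil and erythroid lists, and limma-voom called 1 HSC marker; no other setting called any list gene. Without NTC replicates 3 and 4 the sign turned for Mpo (0.11), Ngp (2.97), Camp (2.00), Lcn2 (4.41), S100a8 (0.40), S100a9 (1.75), Lyz2 (0.14), Cyba (0.32), Anxa1 (0.13), Chil3 (6.41) and Spi1 (0.0941). Values near 0 also turned: Spi1 with upper-quartile scaling (0.00976) and limma-voom (0.00655), and Csf2ra with limma-voom (-0.000226). Leaving out single libraries, log2 differences ran from -0.19 to 0.10 for Cyba, -0.10 to 0.13 for Spi1 and -0.0856 to 0.19 for Csf2ra. In all, 369 of 397 single-gene values kept their sign and side of the threshold. All 16 summed levels moved by less than 1 SD with TMM-scaled library sizes. Per kb of exon the late share was 15.3% and 14.0% in miR652-KD replicates 2 and 3, and without S100a8 and S100a9 it was 2.01% in miR652-KD replicate 3.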
